A study of Mus musculus with 12 samples.

Results

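The collagen genes of the mouse were examined in proximal colon with and without EPR. Every row of the count table whose symbol was Col, a type number, the letter a and a chain number was taken, which gave 44 of 55376 genes. They were read in 3 classes: 11 fibrillar genes, 8 basement membrane genes and 25 others. EPR is a long noncoding RNA of epithelial cells, listed in the table as Smim31, and the study asked what its loss does in the large intestine. EPR fl/fl mice carry loxP sites around the EPR promoter and exon 1 and stood as the control group. The EPR cKO animals carry the same floxed allele together with a Cre recombinase, CDX2P-NLS Cre, driven by a promoter of human CDX2. That promoter is active in epithelial cells of the colon, the cecum and the end of the ileum. All mice were 12 weeks old, each group had 6 mice, and each library came from the whole frozen proximal colon of 1 mouse.

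Collagens are secreted proteins whose chains wind around each other into stiff helices. Fibrillar collagens form the tensile fibres of the submucosa and of the connective tissue between muscle bundles, type IV collagen forms the sheet-like basement membrane under epithelium and around vessels and muscle cells, and type VI collagen forms beaded filaments near cell surfaces. In the gut wall most of these transcripts come from fibroblasts, smooth muscle cells, pericytes and endothelial cells rather than from the epithelium. A lower level in whole tissue can therefore reflect fewer cells of a type or less RNA per cell, which cannot be told apart in these libraries.

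Total counts ranged from 13093904 to 33211041 per library. Smim31 had 297 to 1474 counts in the EPR fl/fl libraries and 0 to 10 in those labelled EPR cKO. The libraries carried all 12 epithelial markers looked for, with a summed level of 10327 to 14873 CPM (counts relative to library size) in EPR fl/fl against 12227 to 18196 in EPR cKO. EPR cKO 1 stood apart in marker lists that hold no collagen gene. It had the highest summed level of fibroblast, smooth muscle, pericyte, endothelial and enteric glia and neuron markers, whereas EPR cKO 5 had the lowest of the first 4 of these. Its total count of 19645585 lay inside the range of the others, and the results that rest on it are given with and without it.

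The summed collagen level was compared first. Levels in CPM were scaled by TMM, and levels of different genes were set side by side only after division by exon length. Summed over the 44 genes, collagen transcripts stood at 343 ± 73.3 CPM per kb in EPR fl/fl (SD, n = 6), with a range of 257 to 440.1. In EPR cKO the sum was 303 ± 246 CPM per kb (SD, n = 6), with a range of 126 to 778. EPR cKO 1 gave the 778, while the other 5 EPR cKO libraries lay between 126 and 352 with a mean of 208 ± 87.0 (SD, n = 5). As a share of all counts, collagen genes took 0.162% to 0.272% in EPR fl/fl against 0.0739% to 0.436% in EPR cKO. The groups overlapped on each of these measures.

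**Figure D1:**
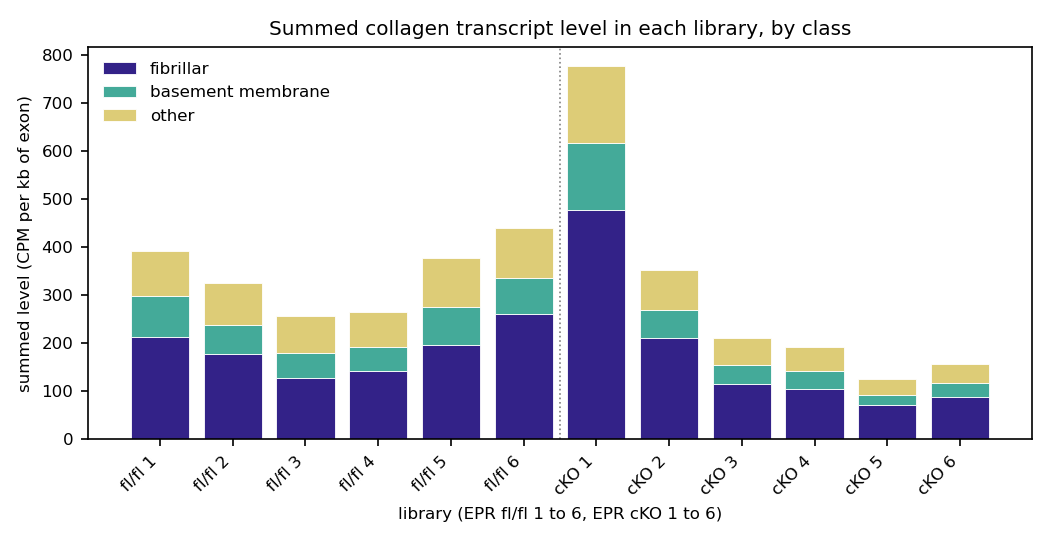
Summed level of the 44 collagen genes in CPM per kb of exon (vertical axis) in each of the 12 libraries (horizontal axis), with the fibrillar, basement membrane and other classes stacked. EPR cKO 1 reached 778 CPM per kb, and the other EPR cKO libraries stood at 126 to 352 against 257 to 440.1 in EPR fl/fl.

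The makeup of the collagen pool varied far less than its size. Fibrillar genes made up 53.9 ± 3.14% of the summed level per kb in EPR fl/fl against 57.4 ± 2.76% in EPR cKO (SD, n = 6 each). Basement membrane genes made up 19.6 ± 1.53% and 17.9 ± 0.948%, and the others 26.6 ± 2.35% and 24.7 ± 2.32%. These shares overlapped between the groups and were not tested. Within the fibrillar class, types I and III together accounted for 46.9 ± 3.504% of all collagen in EPR fl/fl against 50.4 ± 2.96% in EPR cKO.

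Across the 44 genes the mean level per kb in EPR fl/fl spanned from 96.5 ± 25.3 CPM per kb for Col3a1 to 0.00459 for Col10a1. Col3a1, the chain of type III collagen found in distensible tissues, was followed by Col1a2 at 38.7 ± 10.2, Col4a1 at 31.9 ± 7.10, Col1a1 at 27.2 ± 9.81 and Col6a1 at 27.0 ± 5.29 CPM per kb. Neighbours among the last 4 differed by less than the SD of either, while Col3a1 lay above them by more than its SD. That SD includes swings that the genes share within a library, so it does not settle their order. Col1a1 lay below Col1a2 in every library, at a ratio per kb of 0.605 to 0.778 in EPR fl/fl and 0.573 to 0.804 in EPR cKO. Col4a2, Col6a2 and Col6a3 came next at 18.5, 15.3 and 13.3 CPM per kb. The 8 highest genes were the same in EPR cKO, with Col1a1 and Col4a1 in exchanged places. Col8a1, a short-chain collagen of vessel walls and basement membranes, stood in place 13 in EPR fl/fl at 6.14 CPM per kb and in place 19 in EPR cKO at 1.92.

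**Figure D2:**
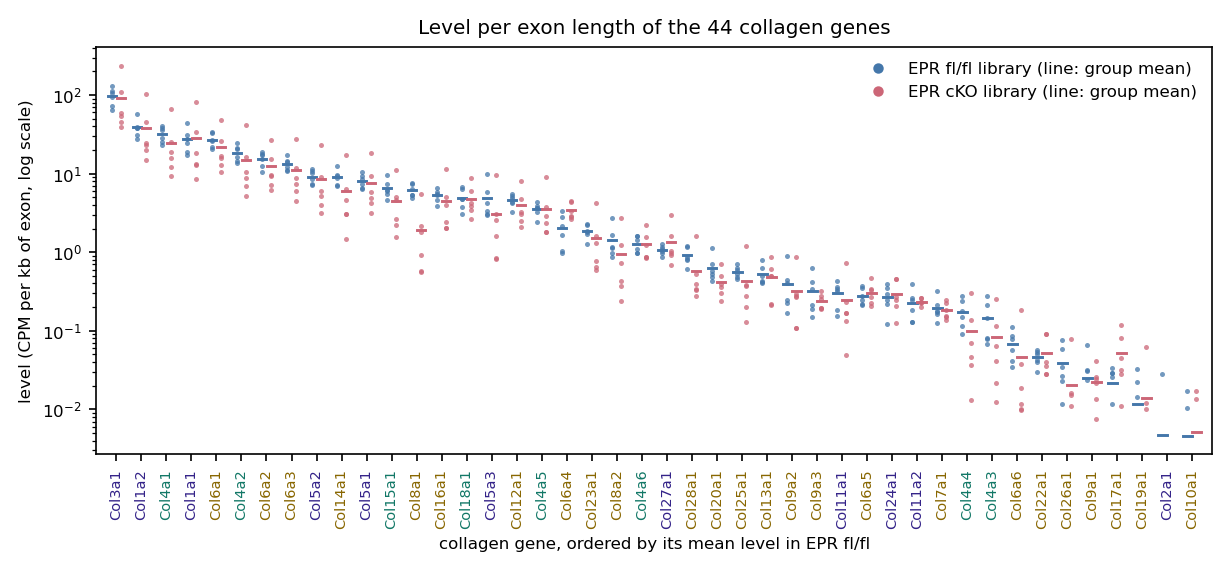
Level of each of the 44 collagen genes in CPM per kb of exon on a log axis (vertical), ordered by the EPR fl/fl mean (horizontal). Points are libraries, lines are group means, libraries at 0 are not drawn, and name colours mark the fibrillar (blue), basement membrane (green) and other (brown) classes. Col3a1 led in both groups at 96.5 and 90.6 CPM per kb, and Col8a1 stood at 6.14 in EPR fl/fl against 1.92 in EPR cKO.

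EPR cKO was then compared with EPR fl/fl gene by gene. Of the 44 collagen genes, 35 passed the filter on low counts and 0 were called lower or higher at an adjusted p under 0.05 by the edgeR quasi-likelihood test, where 1.57% of the 15952 genes tested were called lower and 0.884% higher, or 2.46% in either direction. At an unadjusted p under 0.05, 2 of the 35 passed, Col8a1 and Col6a4, against 18.3% of genes tested. DESeq2 and limma-voom each called 1 of the 35 lower, Col8a1, where they called 2.97% and 2.05% of genes tested lower and 2.77% and 1.1% higher. Limma-voom with library quality weights called 13, all lower, where 11.9% of genes tested were called lower and 8.6% higher. No collagen gene had groups that did not overlap, against 2.47% of genes tested. Estimates lay below 0 for 28 of the 35, against 47.2% of genes tested. Their median log2 fold change was -0.27, with a median of 0.02 over all genes tested.

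The collagen values were more widely spread than those of most genes. The median standard error (SE) of a collagen log2 fold change was 0.40, against 0.14 over all genes tested. The median SD of log2 CPM was 0.36 among EPR fl/fl libraries and 0.96 among EPR cKO libraries. It was larger in EPR cKO for 32 of the 35 genes, against 61.5% of genes tested. EPR cKO 1 was the highest of the 12 libraries for 24 of the 35, against 20.6% of genes tested. EPR cKO 5 or EPR cKO 6 was the lowest for 27 of the 35, against 26.1%.

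**Figure D3:**
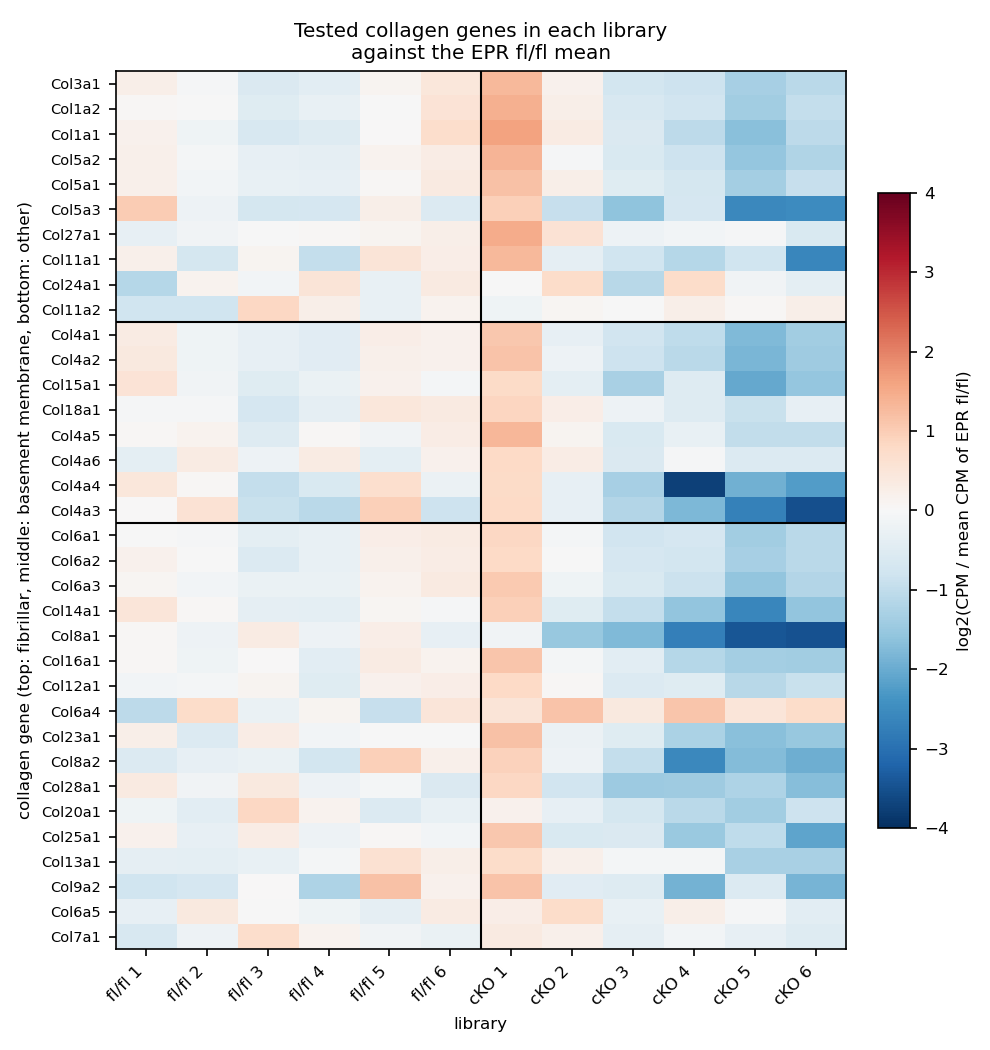
Each row is 1 of the 35 tested collagen genes, each column 1 library, and the colour is the log2 ratio of the CPM to the EPR fl/fl mean of that gene (red above, blue below). Lines part the fibrillar (top), basement membrane (middle) and other (bottom) classes and the 2 groups. EPR cKO 1 is red for most rows and holds the highest value for 24 of 35, and EPR cKO 5 or 6 holds the lowest for 27.

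Without EPR cKO 1 the same test called 17 of 33 collagen genes lower and 0 higher, where 14.4% of genes tested were called lower and 7.44% higher. At that setting the median log2 fold change of the collagen genes was -0.74. The 17 were 2 of 10 fibrillar, 4 of 7 basement membrane and 11 of 16 other genes. Of these, Col4a4 passed the filter on low counts mainly through EPR fl/fl libraries. In 4 of the 35 genes, Col8a1, Col14a1, Col25a1 and Col28a1, the other 5 EPR cKO libraries all lay below the 6 EPR fl/fl libraries, against 7.22% of genes tested, and in 0 they all lay above, against 4.22%. In edgeR without covariates, the number of collagen genes called thus went from 0 to 17 when 1 library of 12 was left out. Since EPR cKO 1 was the highest library for 24 of the 35, leaving it out lowers the EPR cKO mean of those genes by construction. The calls without it are therefore not a separate check.

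**Figure D4:**
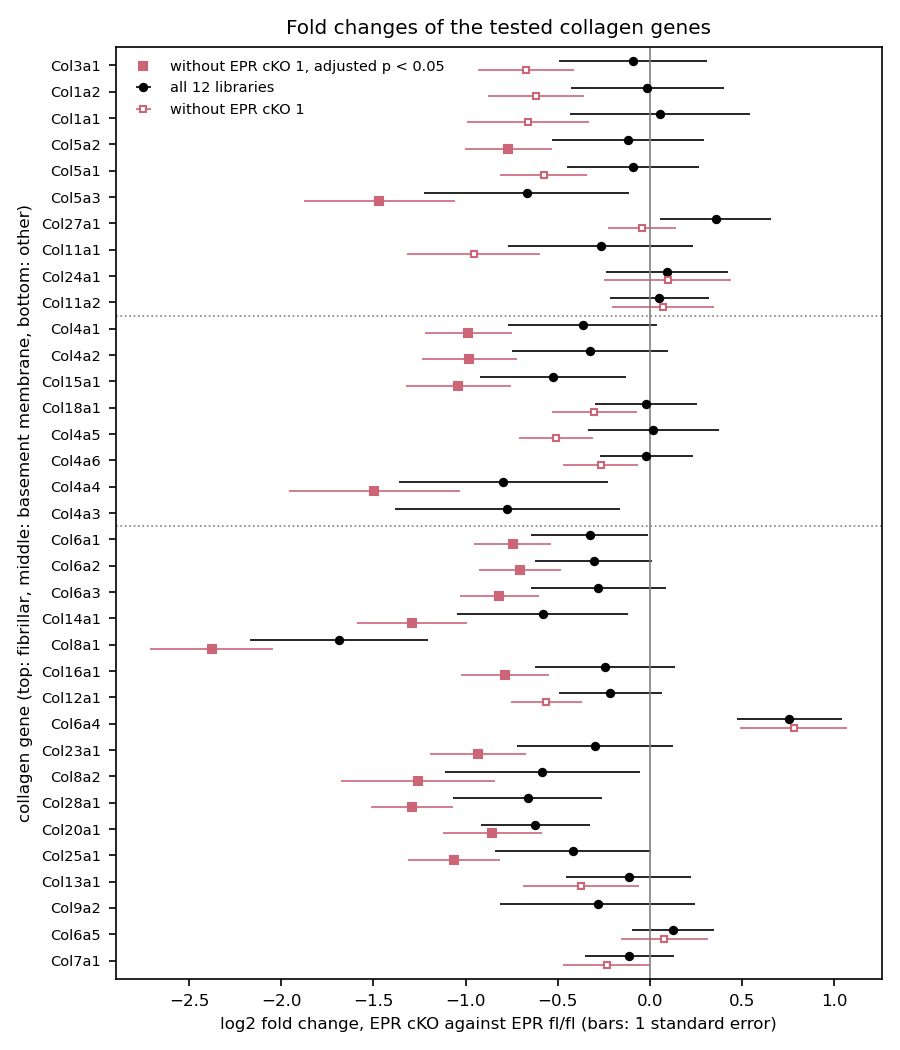
Log2 fold change of EPR cKO against EPR fl/fl (horizontal) for the 35 tested collagen genes (vertical, in 3 classes parted by dotted lines), with bars of 1 SE. Black circles use all 12 libraries and squares leave out EPR cKO 1, filled where the adjusted p was under 0.05. No gene passed with all libraries, and 17 of 33 passed without EPR cKO 1.

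Of the 11 fibrillar genes 10 were tested. With edgeR in all libraries 0 were called, against 2.46% of genes tested, with 0 at an unadjusted p under 0.05, against 18.3%. The median log2 fold change of the fibrillar genes was -0.05, and 6 lay below 0 and 4 above. The promoters of Col1a2 at chr6:4505368-4505667 and Col3a1 at chr1:45311288-45311587 (both on the plus strand) are shown because these genes carry the largest part of the collagen pool. They are from RefSeq on GRCm38.p6 and run from 250 bases before the annotated start to 50 after it, with capitals for the CCAAT box (CCAAT, or ATTGG on the other strand) and the TATA box (TATAAA, or TTTATA).
Col1a2 promoter: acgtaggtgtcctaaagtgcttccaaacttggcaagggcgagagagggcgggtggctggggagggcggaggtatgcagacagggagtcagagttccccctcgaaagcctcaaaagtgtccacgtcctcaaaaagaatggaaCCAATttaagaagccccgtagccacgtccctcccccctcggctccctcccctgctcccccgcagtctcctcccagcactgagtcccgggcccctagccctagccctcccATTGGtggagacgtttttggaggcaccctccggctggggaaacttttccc
Col3a1 promoter: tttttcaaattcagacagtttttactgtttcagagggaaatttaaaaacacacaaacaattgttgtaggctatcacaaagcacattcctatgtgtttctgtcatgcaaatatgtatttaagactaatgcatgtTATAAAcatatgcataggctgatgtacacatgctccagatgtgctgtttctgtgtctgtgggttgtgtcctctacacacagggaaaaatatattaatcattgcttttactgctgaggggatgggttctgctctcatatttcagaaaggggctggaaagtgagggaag
Of 35 collagen promoters matched by symbol, 12 held CCAAT in either strand (34.3%), against 37.9% of 27025 promoters, and 5 held TATAAA (14.3%), against 14.2%. The Col1a2 window held CCAAT 2 times and the Col3a1 window held TATAAA 1 time. These matches describe the letters only.

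Col3a1 stood at 356, 551 and 733 CPM (lowest, median and highest of 6 libraries) in EPR fl/fl and at 216, 314 and 1319.9 in EPR cKO. The 4 lowest values of all 12 were EPR cKO 3 to 6 and the highest was EPR cKO 1, so that the EPR fl/fl libraries lay inside the span of the EPR cKO libraries. The log2 fold change was -0.09 ± 0.40 (SE), with a 95% interval of -0.96 to 0.78 (adjusted p = 0.918, edgeR). Reads of Col3a1 could include those of the predicted gene Gm47302, which shares 2.53% of its exon bases on the same strand.

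The chains of type I collagen, the main load-bearing fibre, also spread more widely in EPR cKO than in EPR fl/fl. Col1a2 stood at 147, 205 and 305 CPM (lowest, median and highest) in EPR fl/fl and at 78.7, 127 and 548 in EPR cKO. Col1a1 stood at 104, 153 and 263 CPM in EPR fl/fl and at 50.9, 93.0 and 489 in EPR cKO. In both genes EPR cKO 1 was the highest and EPR cKO 5 the lowest library. Their log2 fold changes were -0.01 ± 0.41 (95% interval -0.90 to 0.88) and 0.06 ± 0.49 (-0.99 to 1.11), with adjusted p of 0.989 and 0.959 in edgeR. With EPR cKO 1 left out they were -0.62 and -0.66, with adjusted p of 0.106 and 0.165.

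Type V collagen sits inside type I fibres and limits their diameter. Col5a1 stood at 54.1, 67.1 and 86.9 CPM in EPR fl/fl and at 26.5, 44.99 and 153 in EPR cKO. Its partner Col5a2 stood at 47.0, 61.9 and 75.3 CPM and at 20.8, 37.0 and 155. Both had a median in EPR cKO under the lowest EPR fl/fl value, but EPR cKO 1 and 2 kept the groups overlapping. Their log2 fold changes were -0.09 ± 0.36 and -0.12 ± 0.41, with edgeR adjusted p of 0.907 and 0.891. When EPR cKO 1 was left out, Col5a2 fell by 0.77 on the log2 scale (adjusted p = 0.0346) and Col5a3, a minor chain of the same type, fell by 1.47 (adjusted p = 0.0241), while Col5a1 at -0.58 was not called (adjusted p = 0.0983). With all libraries Col5a3 stood at -0.67 ± 0.56 (adjusted p = 0.536). Antisense genes lie over 2.52% of the Col5a1 exon bases.

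Among the fibrillar genes Col27a1, a collagen of cartilage and developing tissues, had the highest estimate. It stood at 6.52, 8.19 and 9.63 CPM in EPR fl/fl and at 5.27, 7.70 and 22.7 in EPR cKO. EPR cKO 1 and 2 lay above all EPR fl/fl libraries and the other 4 within or below them. The log2 fold change was 0.36 ± 0.30 (95% interval -0.29 to 1.00, adjusted p = 0.541 in edgeR) and went to -0.04 without EPR cKO 1. The remaining fibrillar genes were low. Col11a1, Col11a2 and Col24a1 had group means of 1.41 to 2.29 CPM and log2 fold changes of -0.27 ± 0.50, 0.05 ± 0.27 and 0.09 ± 0.33, and Col2a1, the main chain of cartilage, had 2 counts in 1 library. Of 8 cartilage and bone markers, 5 (Acan, Matn1, Comp, Ibsp and Bglap) were also too low to be tested.

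The basement membrane class held the 6 type IV chains and Col15a1 and Col18a1, and all 8 were tested. With edgeR 0 were called, against 2.46% of genes tested, and 0 passed an unadjusted p under 0.05, against 18.3%. The median log2 fold change was -0.34, with 7 estimates below 0. Col4a1 and Col4a2, which together form the common type IV network, lie head to head on chromosome 8: their 5' ends in the count table's annotation are 21 bases apart, and the RefSeq windows at chr8:11312777-11313076 (minus strand) and chr8:11312555-11312854 (plus strand) share 78 bases. They are shown because both genes start from this stretch, with the CCAAT box in capitals as above.
Col4a1 promoter: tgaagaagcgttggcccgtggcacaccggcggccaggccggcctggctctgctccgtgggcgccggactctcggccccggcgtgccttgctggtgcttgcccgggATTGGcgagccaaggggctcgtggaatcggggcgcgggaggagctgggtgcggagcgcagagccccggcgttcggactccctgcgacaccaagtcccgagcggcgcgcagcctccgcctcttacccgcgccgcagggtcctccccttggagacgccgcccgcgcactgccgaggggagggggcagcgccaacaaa
Col4a2 promoter: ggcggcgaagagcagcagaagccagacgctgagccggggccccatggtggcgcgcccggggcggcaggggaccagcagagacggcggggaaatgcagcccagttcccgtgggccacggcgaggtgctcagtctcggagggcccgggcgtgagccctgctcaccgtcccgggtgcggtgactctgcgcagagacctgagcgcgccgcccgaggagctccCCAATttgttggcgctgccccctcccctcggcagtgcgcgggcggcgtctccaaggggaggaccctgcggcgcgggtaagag
Each window held CCAAT or its complement 1 time, and neither held TATAAA. Col4a5 and Col4a6 on the X chromosome and Col4a3 and Col4a4 on chromosome 1 are also head to head, with 5' ends 1309 and 127 bases apart.

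Col4a1 stood at 154, 212 and 266 CPM (lowest, median and highest) in EPR fl/fl and at 62.3, 114 and 445 in EPR cKO. Col4a2 stood at 87.1, 119.6 and 158 CPM and at 33.4, 62.2 and 265. EPR cKO 3 to 6 lay below all EPR fl/fl libraries in both genes, EPR cKO 2 fell inside their range and EPR cKO 1 lay above it. The log2 fold changes were -0.36 ± 0.40 (95% interval -1.24 to 0.51) and -0.32 ± 0.43 (-1.24 to 0.59), with edgeR adjusted p of 0.644 and 0.696. Both fell without EPR cKO 1, by 0.99 and 0.98 on the log2 scale (adjusted p = 0.0127 and 0.0184). The per-kb ratio of Col4a1 to Col4a2 was 1.73 ± 0.0535 in EPR fl/fl against 1.73 ± 0.0938 in EPR cKO (SD, n = 6 each), although each gene varied several-fold between libraries.

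The remaining type IV chains were rarer. Col4a5, a chain of the networks of smooth muscle and specialised basement membranes, stood at 16.0, 23.8 and 28.4 CPM in EPR fl/fl and at 11.7, 17.0 and 58.6 in EPR cKO, with a log2 fold change of 0.02 ± 0.36 (adjusted p = 0.982, edgeR). The ratio of Col4a1 to Col4a5 per kb was 9.20 ± 2.20 in EPR fl/fl against 6.64 ± 1.09 in EPR cKO, with overlapping ranges. Its head-to-head neighbour Col4a6 stood at -0.02 ± 0.25 on the log2 scale (adjusted p = 0.974). Col4a4 and Col4a3, chains best known from the kidney filter, had 2 of the 3 lowest estimates of the collagen genes, -0.79 ± 0.57 and -0.77 ± 0.61 on the log2 scale (adjusted p = 0.471 and 0.514 in edgeR). Col4a4 stood at 0.919, 1.66 and 2.80 CPM in EPR fl/fl and at 0.134, 0.585 and 3.03 in EPR cKO. Col4a3 stood at 0.585, 0.972 and 2.37 CPM and at 0.106, 0.454 and 2.15. The groups overlapped in both genes. Without EPR cKO 1, Col4a4 fell by 1.496 on the log2 scale (adjusted p = 0.0366). Only EPR cKO 2 of its group then reached the 1 CPM of the filter, so Col4a4 was tested mainly through the group where it was high. Its call therefore cannot be weighed like those of Col4a1 and Col4a2. Col4a3 missed the filter on low counts in that set. Of its exon bases, 3.203% lie under an antisense gene.

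Col15a1 and Col18a1 encode multiplexins, basement membrane proteoglycans whose ends can be cut off as restin and endostatin. Col15a1 stood at 28.1, 36.7 and 57.4 CPM in EPR fl/fl and at 9.48, 21.9 and 67.2 in EPR cKO, and Col18a1 at 20.9, 32.1 and 45.7 and at 17.8, 27.4 and 59.6. EPR cKO 1 was the highest and EPR cKO 5 the lowest library for both. Their log2 fold changes were -0.53 ± 0.40 (95% interval -1.38 to 0.33, adjusted p = 0.494) and -0.02 ± 0.28 (-0.62 to 0.57, adjusted p = 0.972) in edgeR. Col15a1 without EPR cKO 1 fell by 1.04 on the log2 scale (adjusted p = 0.0223), and Col18a1 at -0.30 was not called (adjusted p = 0.366). The difference between the 2 genes was not tested.

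The other 25 genes had 17 tested members, a median log2 fold change of -0.30 and 15 estimates below 0. With edgeR 0 were called, against 2.46% of genes tested, and 2 passed an unadjusted p under 0.05, against 18.3%. These held the lowest and the highest estimate of all 35, Col8a1 and Col6a4. Their RefSeq promoters at chr16:57754688-57754987 and chr9:106096642-106096941 (both minus strand, GRCm38.p6) are shown for that reason, in the same notation.
Col8a1 promoter: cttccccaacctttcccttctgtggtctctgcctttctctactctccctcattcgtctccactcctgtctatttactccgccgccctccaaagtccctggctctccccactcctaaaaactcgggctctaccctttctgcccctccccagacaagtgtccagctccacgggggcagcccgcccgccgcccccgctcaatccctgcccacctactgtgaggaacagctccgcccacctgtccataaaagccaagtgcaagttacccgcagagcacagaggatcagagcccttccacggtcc
Col6a4 promoter: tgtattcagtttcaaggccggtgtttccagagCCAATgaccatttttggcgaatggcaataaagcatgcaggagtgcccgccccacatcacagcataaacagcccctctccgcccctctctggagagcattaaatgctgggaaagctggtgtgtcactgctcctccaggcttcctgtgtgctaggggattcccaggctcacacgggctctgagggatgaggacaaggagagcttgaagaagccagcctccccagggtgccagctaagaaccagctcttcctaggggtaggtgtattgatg
The Col8a1 window held neither motif and the Col6a4 window held CCAAT 1 time.

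Col8a1 stood at 24.9, 29.8 and 38.99 CPM (lowest, median and highest) in EPR fl/fl and at 2.82, 7.004 and 28.3 in EPR cKO. Here too EPR cKO 1 was the highest of its group, but at 28.3 CPM it lay inside the EPR fl/fl range rather than above it, and the other 5 stood at 2.82 to 10.9, below every EPR fl/fl library. The log2 fold change was -1.68 ± 0.48 (95% interval -2.73 to -0.64), with an unadjusted p that passed and an adjusted p of 0.0900 in edgeR. DESeq2 and limma-voom gave adjusted p of 0.00851 and 0.00847. Over the other 11 libraries it fell by 2.38 on the log2 scale (adjusted p = 0.00106). Its partner Col8a2 stood at 3.74, 4.97 and 11.9 CPM in EPR fl/fl and at 1.03, 2.498 and 11.7 in EPR cKO, with a log2 fold change of -0.58 ± 0.53 (adjusted p = 0.571). The per-kb ratio of Col8a1 to Col8a2 was 4.92 ± 1.73 in EPR fl/fl against 2.17 ± 0.943 in EPR cKO, with overlapping ranges.

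Col6a4, an alternative chain of type VI collagen, had an estimate of the opposite sign. It stood at 7.18, 14.2 and 24.8 CPM in EPR fl/fl and at 19.5, 23.1 and 32.8 in EPR cKO. All 6 EPR cKO libraries lay above the EPR fl/fl median, EPR fl/fl 2 and 6 lay within the EPR cKO range, and EPR cKO 1 was not set apart in this gene. The log2 fold change was 0.76 ± 0.28 (95% interval 0.14 to 1.37, adjusted p = 0.187 in edgeR), and 0.78 without EPR cKO 1 (adjusted p = 0.0724). Antisense genes lie over 3.92% of its exon bases. The neighbouring Col6a5, a further alternative chain, stood at 2.01, 2.44 and 3.41 CPM in EPR fl/fl and at 1.92, 2.79 and 4.32 in EPR cKO, with a log2 fold change of 0.13 ± 0.22 (adjusted p = 0.774).

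The standard type VI chains followed the pattern of Col4a1 and Col4a2. Col6a1 stood at 84.9, 109 and 138 CPM in EPR fl/fl and at 42.7, 67.2 and 195 in EPR cKO. Col6a2 stood at 63.2, 97.5 and 112 CPM and at 36.9, 56.9 and 161, and Col6a3 at 119, 142 and 185 and at 48.1, 87.4 and 299. In these chains, which assemble with each other, EPR cKO 3 to 6 lay below every EPR fl/fl library, and EPR cKO 1 above. Their log2 fold changes were -0.33 ± 0.32, -0.31 ± 0.32 and -0.28 ± 0.36 (adjusted p = 0.599, 0.619 and 0.695 in edgeR). The 3 chains fell without EPR cKO 1, by 0.74, 0.70 and 0.82 on the log2 scale (adjusted p = 0.0251, 0.0390 and 0.0185). The per-kb ratio of Col6a1 to Col6a2 was 1.77 ± 0.137 in EPR fl/fl against 1.73 ± 0.0708 in EPR cKO, and that of Col6a3 to Col6a1 was 0.495 ± 0.0311 and 0.485 ± 0.0639. Col6a4 to Col6a3 stood at 0.155 ± 0.0778 and 0.429 ± 0.205 with overlapping ranges.

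Fibril-associated collagens bind to the surface of fibres. Col14a1, a marker of fibroblasts, stood at 44.3, 58.4 and 80.4 CPM in EPR fl/fl and at 9.51, 24.9 and 113 in EPR cKO. Apart from EPR cKO 1, all EPR cKO libraries lay below all EPR fl/fl libraries. The log2 fold change was -0.58 ± 0.47 (95% interval -1.59 to 0.42, adjusted p = 0.518 in edgeR), and without EPR cKO 1 it fell by 1.29 (adjusted p = 0.0110). Col12a1, found in tissue under tension, stood at 39.6, 56.1 and 66.7 CPM and at 25.5, 38.6 and 96.7, with a log2 fold change of -0.21 ± 0.28 (adjusted p = 0.694). It was not called without EPR cKO 1 either, at -0.56 (adjusted p = 0.0525). Of the remaining genes, the fibril-associated Col16a1 and Col20a1, the transmembrane Col23a1 and Col25a1, and Col28a1 had estimates of -0.24 to -0.66 with all libraries. All 5 fell without EPR cKO 1, by 0.79, 0.86, 0.93, 1.06 and 1.29 on the log2 scale (adjusted p = 0.0329, 0.0388, 0.0237, 0.0120 and 0.00306), and Col8a2 fell by 1.26 (adjusted p = 0.0470). The transmembrane Col13a1, at -0.11 ± 0.34 with all libraries (adjusted p = 0.872), was not called in either set, and Col9a2, at -0.28 ± 0.53 (adjusted p = 0.787), missed the filter without EPR cKO 1.

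**Figure D5:**
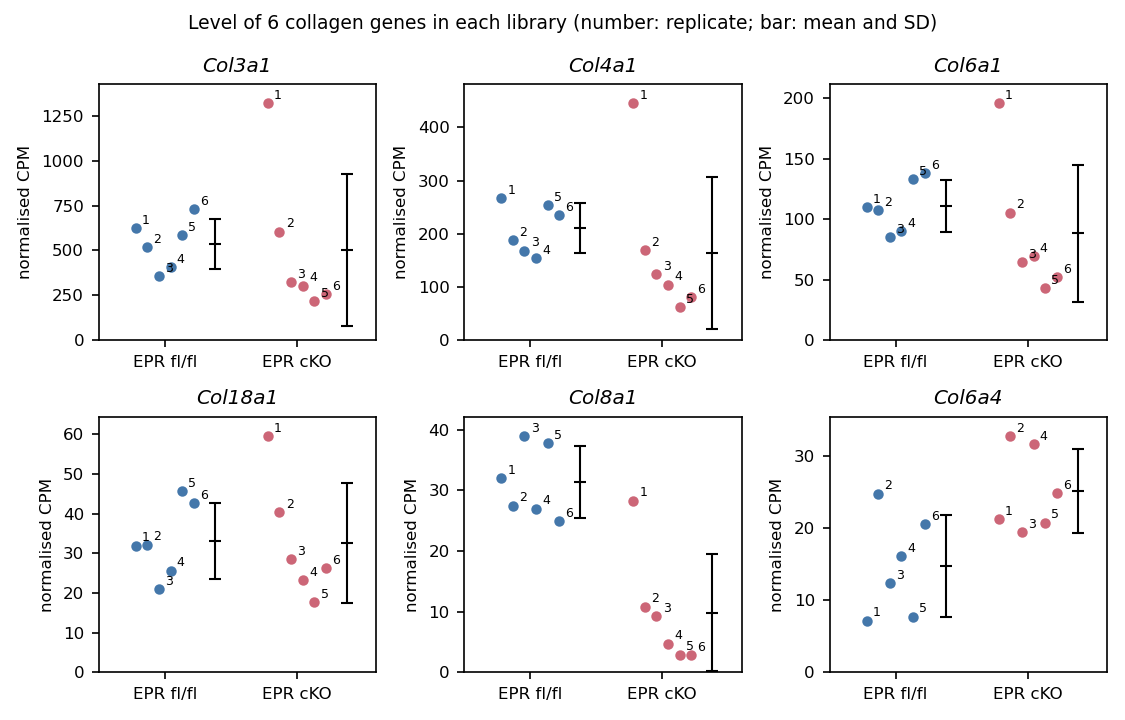
Level in TMM-scaled CPM (vertical axis) of Col3a1, Col4a1, Col6a1, Col18a1, Col8a1 and Col6a4 in each library, by group (horizontal axis), with the replicate number at each point and the mean and SD beside it (n = 6). EPR cKO 1 is far above the rest in Col3a1 (1319.9 CPM) and Col4a1 (445), falls inside the EPR fl/fl range in Col8a1 (28.3) and lies among the others in Col6a4 (21.3).

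The 9 genes that were not tested had 2 to 228 counts over all 12 libraries. They were Col2a1, Col6a6, Col9a1, Col9a3, Col10a1, Col17a1, Col19a1, Col22a1 and Col26a1. Col17a1, a transmembrane collagen of hemidesmosomes in skin, had 54 counts in all, with 0 to 0.190 CPM in EPR fl/fl against 0.0624 to 0.661 in EPR cKO. At that depth no difference between the groups could be shown. Col7a1, the anchoring fibril collagen, was tested at group means of 1.81 and 1.70 CPM and had a log2 fold change of -0.11 ± 0.24 (adjusted p = 0.818, edgeR).

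Ratios between chains were set beside these values. Col1a1 to Col1a2 per kb was 0.690 ± 0.0769 in EPR fl/fl against 0.685 ± 0.0947 in EPR cKO, and Col3a1 to Col1a1 was 3.64 ± 0.343 and 3.58 ± 0.638 (SD, n = 6 each). Col5a1 to Col5a2 was 0.885 ± 0.0270 and 0.969 ± 0.102, with EPR cKO 1 at 0.779 and the other EPR cKO libraries at 0.955 to 1.06. For Col1a1 to Col1a2, Col3a1 to Col1a1, Col4a1 to Col4a2 and Col6a1 to Col6a2, the group means differed by less than the SD within either group. Col15a1 to Col18a1, whose products do not assemble with each other, stood at 1.39 ± 0.371 and 0.877 ± 0.348, with overlapping ranges.

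Genes that make, bind or break down collagen were read from 7 lists with 91 genes, of which 81 were tested. EdgeR called 2 lower and 0 higher, against 1.57% and 0.884% of all genes tested, and 69 of the 81 estimates lay below 0, with a median of -0.36. Of the called genes, Mmp7 passed the filter on low counts only through EPR fl/fl libraries. EPR cKO 1 was the highest library for 52 of the 81. Without it 48 of 80 were called lower and 2 higher, where 14.4% and 7.44% of genes tested were. As with the collagen genes, these calls are not a separate check. With all libraries DESeq2 called 6 and limma-voom with quality weights called 45, where 5.74% and 20.5% of genes tested were called in either direction.

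The folding and modification list held the called gene Mia3, which encodes TANGO1, an organiser of the sites where large cargo such as procollagen leaves the endoplasmic reticulum. It stood at 117, 126 and 155 CPM (lowest, median and highest) in EPR fl/fl and at 74.1, 86.9 and 93.1 in EPR cKO. All EPR cKO libraries lay below all EPR fl/fl libraries, and EPR cKO 1 was the lowest of the 12. Mia3 fell by 0.61 ± 0.08 on the log2 scale (adjusted p = 0.00128, edgeR), and by 0.59 without EPR cKO 1. The most abundant genes of this list were P4hb, a subunit of prolyl 4-hydroxylase, at -0.07 ± 0.09 (adjusted p = 0.664), and Ppib, a prolyl isomerase, at -0.05 ± 0.12 (adjusted p = 0.837). Of the 20 tested, 1 was called.

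Mmp7, which encodes the protease matrilysin, was the other called gene, on the list of breakdown and its inhibitors. It stood at 0.789, 1.35 and 2.74 CPM in EPR fl/fl and at 0.330, 0.442 and 0.902 in EPR cKO, and the groups overlapped in their tails. It fell by 1.58 ± 0.36 on the log2 scale (adjusted p = 0.0355, edgeR). No EPR cKO library reached the 1 CPM of the filter, so Mmp7 was tested only through the group where it was high. Its call therefore cannot be weighed like that of Mia3. The call was lost without EPR cKO 2, 4, 5 or 6 (adjusted p = 0.0701 to 0.0892), with the composition score as a covariate (adjusted p = 0.0791), and it missed the count filter without EPR fl/fl 1, 3, 4 or 6. The inhibitors Timp2 and Timp3, the most abundant of the 13 tested, stood at -0.50 ± 0.41 and -0.51 ± 0.39 (adjusted p = 0.527 and 0.496), and both fell without EPR cKO 1, by 1.09 and 1.13 (adjusted p = 0.0131 and 0.00351).

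The other 5 lists held 0 called genes with edgeR in all libraries, of 48 tested, against 2.46% of all genes tested. Their most abundant members were as follows. The fibril-binding proteoglycans Dcn and Ogn stood at -0.67 ± 0.42 and -0.57 ± 0.39 (adjusted p = 0.406 and 0.448), and 7 of 8 on that list were called lower without EPR cKO 1, against 14.4% of genes tested. The cross-linking oxidases Loxl1 and Loxl2 stood at -0.51 ± 0.44 and -0.21 ± 0.40 (adjusted p = 0.556 and 0.787), and 4 of 5 were called lower without EPR cKO 1, against the same 14.4%. Among basement membrane partners, Nid1, which links laminin to type IV collagen, stood at -0.50 ± 0.41 (adjusted p = 0.526), and Lamb3, a laminin chain of epithelium, at 0.22 ± 0.07 (adjusted p = 0.115). Without EPR cKO 1, Nid1 fell by 1.14 (adjusted p = 0.00653) and Lamb3 rose by 0.23 (adjusted p = 0.0300). Mep1a and Mep1b, meprin subunits that can cut procollagen, stood at 0.06 ± 0.11 and -0.10 ± 0.10 (adjusted p = 0.774 and 0.572), and the receptors Itgb1 and Ddr1 at -0.03 ± 0.11 and 0.22 ± 0.11 (adjusted p = 0.898 and 0.323).

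Markers of the cells that make collagen had their highest sums in EPR cKO 1 and their lowest in EPR cKO 5. All 12 fibroblast, 12 smooth muscle, 6 pericyte and 8 endothelial markers had estimates below 0. EdgeR called 0 of them, against 2.46% of genes tested. Summed fibroblast markers stood at 1001 to 1782 CPM in EPR fl/fl, at 2150.3 in EPR cKO 1 and at 362 to 1027 in the other EPR cKO libraries. The corresponding smooth muscle values were 3661 to 6272, 10911 and 1321 to 3240.1 CPM. The pericyte values were 372 to 697, 1079.6 and 126 to 314 CPM, and the endothelial values 73.3 to 86.8, 123 and 36.1 to 81.0. No defining marker of these lists was at 0 in all libraries. Of the fibroblast list, Dcn and Lum also stand on the proteoglycan list, and Krt19 stands on both the epithelial and the mesothelial list.

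The other lists gave further values beside these. The 7 adipocyte markers had a median log2 fold change of -1.40, and their sum was 435 to 1421 CPM in EPR fl/fl against 54.6 to 974 in EPR cKO. Enteric glia and neuron markers had a median of -0.20, macrophage markers -0.37, mesothelial markers -0.75, and the 3 tested cartilage and bone markers -0.13. The 12 epithelial markers had a median of 0.24. EdgeR called 0 genes on any of the 10 marker lists in either direction with all libraries, where 2.46% of genes tested were called. Without EPR cKO 1 it called 9 of 12 fibroblast, 11 of 12 smooth muscle, 4 of 6 pericyte, 5 of 8 endothelial, 7 of 12 enteric glia and neuron, 7 of 7 adipocyte and 3 of 10 macrophage markers lower, where 14.4% of genes tested were. It called 3 of 12 epithelial and 1 of 6 mesothelial markers higher, where 7.44% were, and 0 cartilage and bone markers. EPR cKO 1 was set apart by the sums of several of these lists, so the calls without it are not a separate check. With all libraries 5 of the 6 mesothelial estimates lay below 0, and the other was that of Krt19, which is shared with the epithelial list. The part of these cell types in the collagen calls without EPR cKO 1 was not tested.

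A composition score, the mean log2 CPM of the epithelial markers minus that of the smooth muscle markers, was 1.78 ± 0.249 in EPR fl/fl against 2.86 ± 1.27 in EPR cKO (SD, n = 6 each, two-sided exact permutation p = 0.0714). EPR cKO 1 had 0.533, below all others, and EPR cKO 5 had 3.97, above all others. Without EPR cKO 1 the difference was 1.54 (exact permutation p = 0.00216). That library had the lowest score and was set apart by muscle markers that enter it. Leaving it out therefore widens the difference by construction and is not a separate check. With the score as a covariate in edgeR, 27 of the 35 collagen estimates lay above 0, with a median of 0.21, and 2 genes were called. Col8a1 fell by 1.11 ± 0.18 on the log2 scale (adjusted p = 0.00742), and Col27a1 rose by 0.78 ± 0.15 (adjusted p = 0.0184). In that fit 1.56% of genes tested were called lower and 0.552% higher. Whether tissue composition or the deletion set the collagen levels was not tested. The score may itself move with the groups: its means differed, though the groups overlapped with all libraries (exact permutation p = 0.0714).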

How the data were processed

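Total RNA of the proximal colon was sequenced from 12 mice, 6 per group, as 1 library per mouse, and the labels gave the groups. The table the authors deposited holds raw read counts for each gene, with no normalisation or filter. Per the study's methods and processing notes, reads were trimmed with Trimmomatic, aligned to mm10 with STAR 2.5.3a and counted with featureCounts on an Ensembl annotation. The strand setting and the treatment of reads with several alignments were not given in the sources used here, so that reads over antisense genes cannot be told apart. All count columns were matched to a sample by name.

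Genes reaching 1 CPM in at least 4 libraries were kept (15952 of 36694 with any count), and TMM factors set the library sizes. EPR cKO was compared with EPR fl/fl in R 4.3.3 by the quasi-likelihood test of edgeR 4.0.16, without covariates and on all libraries. Adjusted p-values are Benjamini-Hochberg values over every gene tested. Each SE was taken as the absolute estimate over the square root of its F statistic. The fit was tested on simulated data first. The common biological coefficient of variation was 26.1%. Repeat libraries were looked for within groups, and the closest of 30 pairs still had a chi-square of 24.8 per gene. The composition score was compared by a two-sided exact permutation test over 924 assignments, on log2 CPM with a prior count of 2.

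The members, the 7 pathway lists, the 10 marker lists (fibroblast, smooth muscle, pericyte, endothelium, epithelium, enteric glia and neurons, adipocyte, mesothelium, macrophage, cartilage and bone) and the tests were chosen with earlier results of these data known. Values are given for the main structural chains, any collagen gene called, the 3 highest and 3 lowest estimates, and pathway genes called or among the 2 most abundant per kb of their list. Other genes named were chosen after their values were seen. Motifs were searched on both strands of RefSeq promoters, and exon lengths and overlaps came from the count table. The alternatives were size factors of DESeq2 1.42.0 in edgeR, its Wald test, no TMM, no filter, filterByExpr, limma-voom (limma 3.58.1) with and without quality weights, a replicate block, a composition covariate and the omission of each library in turn.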

Additional observations from a re-analysis of the deposited data

Results flagged for a closer look

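Of 78 groups of 6 libraries examined for a library far from the others, 15 held one. For independent, normally distributed values the rule flags about 1 in 20 groups, or 3.9. Levels of these genes vary together, so that number is not a fair expectation here. In 13 of the 15 that library was EPR cKO 1, so that these are not separate events.

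In 11 of the collagen genes examined by this rule EPR cKO 1 lay far above the other EPR cKO libraries. Among fibrillar genes it stood at 489 CPM in Col1a1, 548 in Col1a2, 1319.9 in Col3a1 and 155 in Col5a2, where the next highest EPR cKO library had 202, 244, 606 and 59.5. Among basement membrane genes it stood at 445 CPM in Col4a1, 265 in Col4a2, 58.6 in Col4a5 and 67.2 in Col15a1, with 169, 103, 24.7 and 29.98 next. Among the others it stood at 299 CPM in Col6a3, 113 in Col14a1 and 28.3 in Col8a1, with 128, 41.4 and 10.9 next. Not every collagen gene is in this count. Col25a1 and Col28a1, for example, are left out, though EPR cKO 1 had 8.26 and 6.77 CPM, with 2.61 and 2.25 next. EPR cKO 1 also had the highest fibroblast and smooth muscle marker sums of its group, and their part in these values was not tested.

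A further 4 ratios per kb had a library apart. Col5a1 to Col5a2 was 0.779 in EPR cKO 1, with 0.955 to 1.06 in the others of its group, and Col4a5 to Col4a6 was 4.05 there, with 2.07 to 2.74. Col3a1 to Col1a1 was 2.97 in EPR fl/fl 6, with 3.66 to 3.86 in the other EPR fl/fl libraries. Col4a3 to Col4a4 was 3.15 in EPR cKO 4, with 0.338 to 0.928 in the others, where Col4a4 stood at 0.134 CPM.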

How the results depend on the processing

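Calls of collagen genes changed with the libraries and the test used. Leaving out each library in turn, edgeR called 0 to 17 collagen genes lower and 0 to 0 higher, 0 to 2 fibrillar, 0 to 4 basement membrane, 0 to 11 other and 1 to 50 pathway genes. Each upper end above 0 came without EPR cKO 1, where 14.4% of genes tested were called lower and 7.44% higher. DESeq2 and limma-voom each called 1 collagen gene lower, of the other class, where 2.97% and 2.05% of genes tested were called lower. Limma-voom with quality weights called 13 lower (1 fibrillar, 4 basement membrane and 8 other), where 11.9% were. The composition covariate gave 1 lower (other) and 1 higher (fibrillar), where 1.56% and 0.552% were. Pathway calls were 6 with DESeq2 and 45 with quality weights, where 5.74% and 20.5% of all genes tested were called. The difference in composition score ranged from 0.857 to 1.54 over the libraries left out, passing only without EPR cKO 1. Leaving out that library, the lowest in score, widens the difference by construction. Why the settings differed was not tested.

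Some estimates changed sign. With the composition covariate, log2 fold changes went above 0 for Col1a2 (0.47), Col3a1 (0.39), Col5a1 (0.40), Col5a2 (0.38), Col4a1 (0.14), Col4a2 (0.18), Col18a1 (0.37), Col6a1 (0.13), Col6a2 (0.14), Col6a3 (0.21), Col12a1 (0.23), Loxl1 (0.051), Loxl2 (0.28), Timp2 (0.041), Timp3 (0.00132) and Itgb1 (0.12). Without TMM, Col1a1 went to -0.0015 and Col4a5 to -0.037, and without the low-count filter Col4a5 went to -0.016. With limma-voom they were -0.33 and -0.24. With quality weights they were -0.57 and -0.46, while Col27a1 went to -0.034 and Ppib to 0.00457. None of these passed an adjusted p of 0.05. Leaving out 1 library moved Col1a1 from -0.66 to 0.24, Col1a2 from -0.62 to 0.16, Col3a1 from -0.67 to 0.066, Col5a1 from -0.58 to 0.072, Col5a2 from -0.77 to 0.052, Col4a5 from -0.51 to 0.16, Col18a1 from -0.30 to 0.10, Col27a1 from -0.043 to 0.48 and Col6a5 from -0.035 to 0.22. It also moved Ppib from -0.11 to 0.027, Mep1a from -0.015 to 0.12 and Itgb1 from -0.14 to 0.016. Mia3 was called in every fit that was run. Col8a1, Col6a4, Col14a1, Col15a1, Col4a3 and Col4a4 kept their directions in every fit that tested them.

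The labels do not say that the replicate numbers pair the mice. Deviations of same-numbered libraries correlated at -0.24 to 0.34, and 2 of 6 libraries matched their own number best, which cannot exclude a pairing. With the replicate block, edgeR called 178 genes lower and 67 higher, 0 collagen genes and 1 pathway gene. Col1a1 went to -0.33 and Col4a5 to -0.22, and Mmp7 lost its call (adjusted p = 0.0833).

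With a median SE of 0.40 the intervals of the collagen genes were wide, such as -0.96 to 0.78 for Col3a1, so that differences of that size could go uncalled. Genes that missed the filter on low counts were not assessed.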
